A study of Mus musculus with 11 samples.

Results

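Genes characteristic of fat cells were followed in heart RNA, 8 in all: Adipoq, Retn, Lep, Cfd, Plin1, Cidec, Car3 and Scd1. They were chosen by name, as the rows of the gene count table whose Ensembl identifiers carry these symbols in GENCODE mouse release 21. All 8 were found among the 22608 genes of the table. The samples were hearts (ventricle, per the labels) of 11 male mice aged 8 to 16 weeks, sequenced to compare CD mice with WT mice and to follow the effect of JZL184. CD mice (labelled WBS-CD), a model of Williams-Beuren syndrome on the C57BL/6J background (backcrossed for 9 generations), carry 1 intact copy of the interval between Gtf2i and Fkbp6 instead of a pair (complete deletion). WT mice (labelled C57BL/6) were their littermates. JZL184, an inhibitor of monoacylglycerol lipase, was given at 8 mg/kg for 10 days. Vehicle was given to 2 WT mice (the WT VEH group) and 3 CD mice (CD VEH), and JZL184 to 3 WT mice (WT JZL184) and 3 CD mice (CD JZL184). All p-values measure the spread between these mice. The vehicle groups are called untreated in one field of the labels and vehicle in the titles.

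Adipocytes store triglyceride in a large lipid droplet and release hormones, the adipokines, into the blood. White fat lies on the surface of the heart under the epicardium and along its vessels, and in mice this layer is thin. An excised heart can therefore carry a small and variable amount of fat, and RNA of the whole piece is read together. In such bulk samples, fewer cells of a type and less RNA per cell cannot be told apart.

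Total counts lay between 69660232 and 92251443 per mouse, so that 3 counts corresponded to 0.0305 to 0.0433 CPM (the count scaled to a common library size with TMM factors). Mitochondrially encoded genes held 39.4% to 41.2% of each total in WT VEH, 45.0% to 46.6% in WT JZL184, 43.5% to 44.7% in CD VEH and 36.4% to 40.1% in CD JZL184. With these genes left out, the log2 fold change of Scd1 in CD VEH against WT VEH was 0.55 (without a filter on low counts), and the number of the 8 genes called was the same in every comparison, with or without a filter. Cardiomyocyte genes were abundant in every heart, with the ventricular light chain Myl2 at 5851 to 8347 CPM. The atrial markers Sln and Myl7 reached at most 0.188 and 0.52 CPM. The deletion was visible in the labelled groups: of 19 genes between Gtf2i and Fkbp6 with at least 10 counts in every WT mouse, 17 had all CD mice below all WT mice, and the median ratio of CD to WT was 0.517 (range 0.391 to 0.651). Single mice are named by group and by the letter of their column.

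Per length of transcript, Scd1 stood far above the other 7 genes in these hearts. Its mean level over the 11 mice was 2.10 ± 0.49 CPM per kb of exon (SD, n = 11), against 0.402 ± 0.414 for Cfd, 0.222 ± 0.213 for Car3 and 0.0796 ± 0.0664 for Adipoq. Retn (0.0645 ± 0.0510), Cidec (0.0544 ± 0.0610) and Plin1 (0.0306 ± 0.0233) were lower, and Lep (0.00188 ± 0.00423) was the lowest. From Cfd down to Plin1, each of these genes differed from its neighbour in this order by less than the larger of their SDs, whereas the steps from Scd1 to Cfd and from Plin1 to Lep were larger than that. Only Scd1 passed the filter of an average log2 CPM of at least 1, and the other 7 were below it.

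The starts of these genes differ in sequence. The 250 bases upstream of the start were taken from a RefSeq table (build GRCm38.p6), in which 7 windows matched 6 of the genes (2 for Cidec). Those of Car3 and Scd1 were not analysed here. They were searched on both strands for TATAAA, for AGGTCA, for a direct repeat of AGGTCA with 1 base between, which is the form of site that PPARG and RXR recognise, and for TTGCNNAA, a core of the C/EBP recognition sequence. The repeat overlaps the single AGGTCA by construction. The windows of Adipoq (chr16:23146286-23146535, plus strand) and Cfd (chr10:79890603-79890852, plus strand) are shown because Adipoq is the gene against which the others were correlated and Cfd stood second to Scd1 in level per length. Those of Plin1 (chr7:79732777-79733026, minus strand) and Lep (chr6:29059971-29060220, plus strand) are shown as windows that hold matches, and capitals mark TTGCNNAA. A window of Cidec with a match is not shown.
Adipoq: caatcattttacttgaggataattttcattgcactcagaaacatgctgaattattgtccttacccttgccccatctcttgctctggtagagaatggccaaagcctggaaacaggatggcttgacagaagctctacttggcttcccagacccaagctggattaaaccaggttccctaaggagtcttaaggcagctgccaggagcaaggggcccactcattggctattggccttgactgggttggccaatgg
Cfd: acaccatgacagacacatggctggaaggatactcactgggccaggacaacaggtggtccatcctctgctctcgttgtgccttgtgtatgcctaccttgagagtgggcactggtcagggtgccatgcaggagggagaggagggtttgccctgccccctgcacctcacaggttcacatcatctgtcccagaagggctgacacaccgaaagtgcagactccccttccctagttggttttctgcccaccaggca
Plin1: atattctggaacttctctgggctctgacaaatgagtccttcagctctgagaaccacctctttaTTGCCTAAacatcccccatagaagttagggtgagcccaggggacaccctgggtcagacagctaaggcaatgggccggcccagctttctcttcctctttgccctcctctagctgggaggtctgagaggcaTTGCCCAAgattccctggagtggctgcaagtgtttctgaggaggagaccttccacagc
Lep: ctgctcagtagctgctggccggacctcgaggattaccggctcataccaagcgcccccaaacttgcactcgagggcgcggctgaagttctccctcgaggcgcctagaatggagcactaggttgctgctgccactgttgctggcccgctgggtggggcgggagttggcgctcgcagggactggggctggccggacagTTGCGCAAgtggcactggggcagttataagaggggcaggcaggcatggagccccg
TTGCNNAA was present in 3 of the 7 windows, with 2 matches in Plin1, 1 in Lep and 1 in a window of Cidec, and in 9.56% of all 32851 RefSeq windows of this length. The match in Lep reads the same on both strands. Starts in RefSeq can differ from the GENCODE gene positions given below. The Plin1 window reaches into its gene there, and the Cidec window with the match (chr6:113434765-113435014, minus strand) lies inside its gene. TATAAA (12.4% of all windows), AGGTCA (14.0%) and its direct repeat (0.0335%) were in 0 of the 7, which says only that these letters are not in these windows.

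The 6 genes Adipoq, Cfd, Plin1, Cidec, Retn and Car3 varied together from mouse to mouse over a wide range. Their summed level was 0.332 and 0.248 CPM in the WT VEH mice (C and D). It was 0.273, 0.660 and 0.887 CPM in WT JZL184 (A, B and D). It was 3.37, 4.17 and 1.18 CPM in CD VEH (A, C and E), and 0.724, 1.37 and 2.87 CPM in CD JZL184 (A, C and E). Every CD VEH mouse was therefore above every WT mouse, whereas CD JZL184 overlapped both CD VEH and WT JZL184. The highest mouse was 16.9 times the lowest over all 11 mice, 3.53 times within CD VEH, 3.96 times within CD JZL184, 3.25 times within WT JZL184 and 1.34 times within WT VEH.

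**Figure D1:**
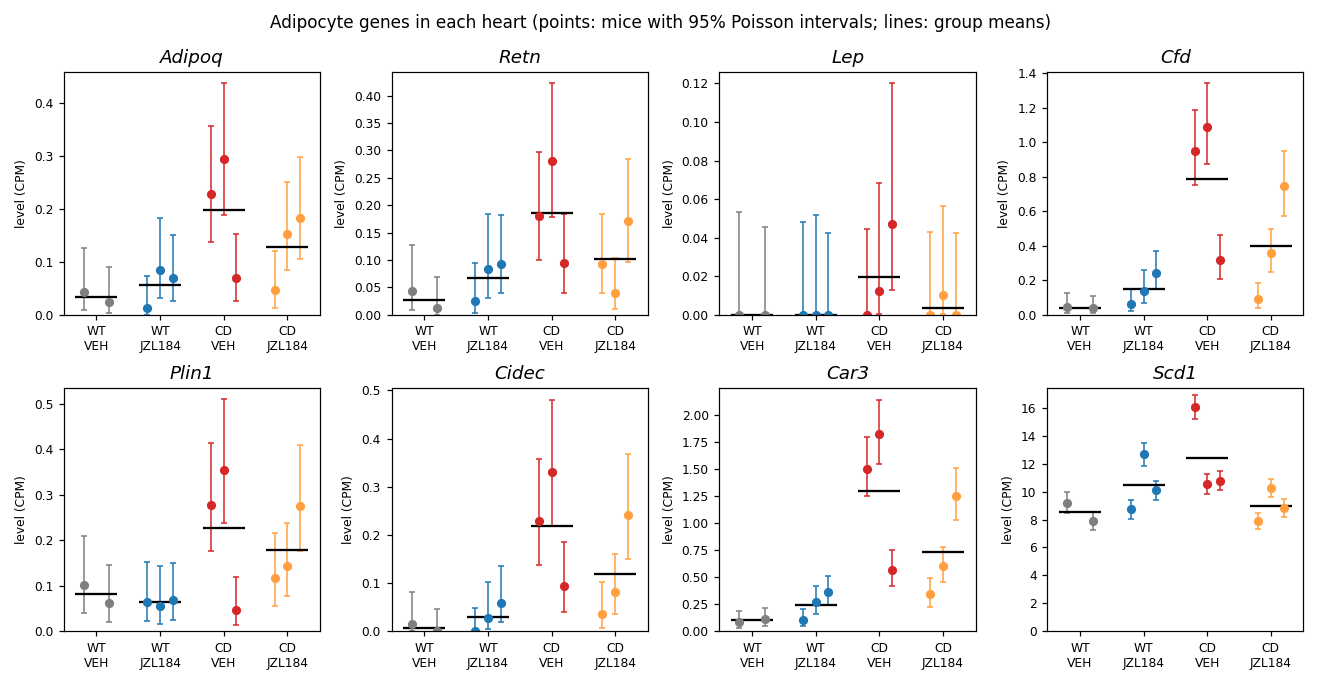
Level of each of the 8 genes (y axis, CPM, each panel with its own scale from 0) in each of the 11 hearts by group. Points are mice, bars are 95% Poisson intervals of the count, which cover counting error only, and horizontal lines are group means. The mice CD VEH A and C stand highest for Adipoq, Cfd, Plin1 and Car3, whereas Scd1 stays between 7.88 and 16.1 CPM in all hearts.

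Adipoq encodes adiponectin, an adipokine abundant in plasma. On chr16:23146536-23158028 (GRCm38, plus strand), it had 3 and 2 counts in WT VEH, 1, 6 and 6 in WT JZL184, 19, 24 and 6 in CD VEH and 4, 15 and 16 in CD JZL184. The group means were 0.0341 ± 0.0131 CPM (SD, n = 2), 0.0554 ± 0.0375 (n = 3), 0.197 ± 0.115 (n = 3) and 0.128 ± 0.0717 (n = 3). CD VEH lay above WT VEH in every mouse and overlapped the other groups, with CD VEH E at the level of the WT JZL184 mice. Without a filter on low counts, the log2 fold change of CD VEH against WT VEH was 2.51 ± 0.84 (SE) and missed the threshold (edgeR quasi-likelihood test, adjusted p = 0.0522). It also missed it in 11 of 17 alternatives. It passed in 2 other ways of processing (edgeR adjusted p = 0.0402 and 0.0472) and in 4 cases of a mouse left out (0.0301 to 0.0406).

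Retn encodes resistin, an adipokine that mouse white fat secretes. On chr8:3655770-3660110 (plus strand), its counts were 3 and 1 in WT VEH, 2, 6 and 8 in WT JZL184, 15, 23 and 8 in CD VEH and 8, 4 and 15 in CD JZL184. CD VEH was above WT VEH in every mouse, and CD JZL184 C fell among the WT JZL184 mice. Retn rose in CD VEH versus WT VEH, by a log2 fold change of 2.72 ± 0.83 (SE, adjusted p by edgeR = 0.0365).

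Lep, the gene of the satiety hormone leptin on chr6:29060220-29073877 (plus strand), was at 0 counts in all 5 WT mice. It had 0, 1 and 4 counts in CD VEH and 0, 1 and 0 in CD JZL184. The 5 counts of CD VEH, set against a floor of 3 counts over the WT VEH group, gave a ratio of 0.999, so no difference was detectable at this depth. The mouse with 4 counts, CD VEH E, was the lowest of its group for Adipoq, Cfd, Plin1, Cidec, Retn and Car3.

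Cfd encodes complement factor D (adipsin), a serine protease of the alternative complement pathway that fat cells secrete. On chr10:79890853-79892655 (plus strand), it had 3 and 3 counts in WT VEH, 5, 10 and 21 in WT JZL184, 79, 89 and 27 in CD VEH and 8, 35 and 65 in CD JZL184. Its means were 0.0403 ± 0.0044 CPM (SD, n = 2) in WT VEH, 0.149 ± 0.089 (n = 3) in WT JZL184, 0.785 ± 0.412 (n = 3) in CD VEH and 0.398 ± 0.328 (n = 3) in CD JZL184. Every CD VEH mouse exceeded every WT mouse, and CD JZL184 A fell below 2 of the WT JZL184 mice. Cfd rose in CD VEH versus WT VEH by a log2 fold change of 4.25 ± 0.90 (SE, adjusted p by edgeR = 0.0065).

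Plin1 (perilipin 1) coats the lipid droplet of fat cells and controls access of lipases to it. On chr7:79720218-79732903 (minus strand), its counts were 7 and 5 in WT VEH, 5, 4 and 6 in WT JZL184, 23, 29 and 4 in CD VEH and 10, 14 and 24 in CD JZL184. CD VEH E, with 4 counts, was below both WT VEH mice, so these groups overlapped, whereas every CD JZL184 mouse was above every WT JZL184 mouse. The log2 fold change of CD VEH against WT VEH was 1.47 ± 0.69 (SE, adjusted p by edgeR = 0.163).

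Cidec promotes the fusion of small lipid droplets into a large one. On chr6:113424634-113435760 (minus strand), it had 1 and 0 counts in WT VEH, 0, 2 and 5 in WT JZL184, 19, 27 and 8 in CD VEH and 3, 8 and 21 in CD JZL184. Every CD VEH mouse was above every WT mouse. Summed over mice, the ratio of CD VEH (54 counts) to WT VEH (1 count) was 32.4, with an exact counting interval of 5.57 to 1301. Cidec rose in this comparison (edgeR adjusted p = 0.0191).

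Car3, a carbonic anhydrase of the cytosol, is abundant in fat cells and also in slow skeletal muscle. On chr3:14863512-14872523 (plus strand), it had 6 and 9 counts in WT VEH, 8, 19 and 31 in WT JZL184, 125, 149 and 48 in CD VEH and 29, 59 and 109 in CD JZL184. Its means were 0.0991 ± 0.0175 CPM (SD, n = 2), 0.243 ± 0.128 (n = 3), 1.30 ± 0.66 (n = 3) and 0.729 ± 0.469 (n = 3). CD VEH lay above every WT mouse, and CD JZL184 overlapped WT JZL184 by a single mouse on each side. Car3 rose in CD VEH versus WT VEH by a log2 fold change of 3.68 ± 0.69 (SE, adjusted p by edgeR = 0.00347) and in CD JZL184 against WT JZL184 by 1.59 ± 0.52 (adjusted p = 0.0376).

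Scd1 encodes a stearoyl-CoA desaturase, which makes monounsaturated fatty acids in fat, liver and other tissues. On chr19:44394455-44407879 (minus strand), its level was 9.20 and 7.88 CPM in WT VEH, 8.72, 12.7 and 10.1 in WT JZL184, 16.1, 10.5 and 10.8 in CD VEH and 7.88, 10.3 and 8.83 in CD JZL184. CD VEH lay above WT VEH in every mouse, with CD VEH A apart from the other 2 CD VEH mice, and the other groups overlapped. The related genes Scd2, Scd3 and Scd4 are similar in sequence, and how the counting divided reads among them was not tested.

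The comparison of CD VEH with WT VEH asks what the deletion changes without drug. Among all 19080 genes fitted without a filter, 16.8% passed the test in either direction and 24.7% were above WT VEH in every CD VEH mouse. Of the 8 adipocyte genes, 5 rose (Cfd, Cidec, Retn, Car3 and Scd1), 0 fell, and 6 were above WT VEH in every CD VEH mouse. The median log2 fold change of the 8 was 2.62 with Lep at its bound against the floor, beside 0.00 over all 19080 genes. Scd1 rose by 0.55 ± 0.18 in this fit (SE, adjusted p by edgeR = 0.0479), where the other 4 estimates were 2.72 or more. With the filter, in which 30.4% of 11319 genes passed, the same change of Scd1 was 0.55 ± 0.20 (adjusted p = 0.0567) and 0 of 1 member passed. The calls rest on few mice. These calls were lost without WT VEH C, and all but that of Car3 without WT VEH D. The lone mouse is then taken to vary like the other groups. Calls over all genes fell too without WT VEH C, so this loss is not particular to the 8 genes. Car3 stayed at a log2 fold change of 3.52 without WT VEH C. Retn was also lost without CD VEH A (adjusted p = 0.0741) or CD VEH C (0.0965). Scd1 was also lost without WT JZL184 D (0.0572), CD VEH A (0.197) or CD JZL184 E (0.0548), with RLE scaling (0.0506) and with robust estimation (0.117).

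**Figure D2:**
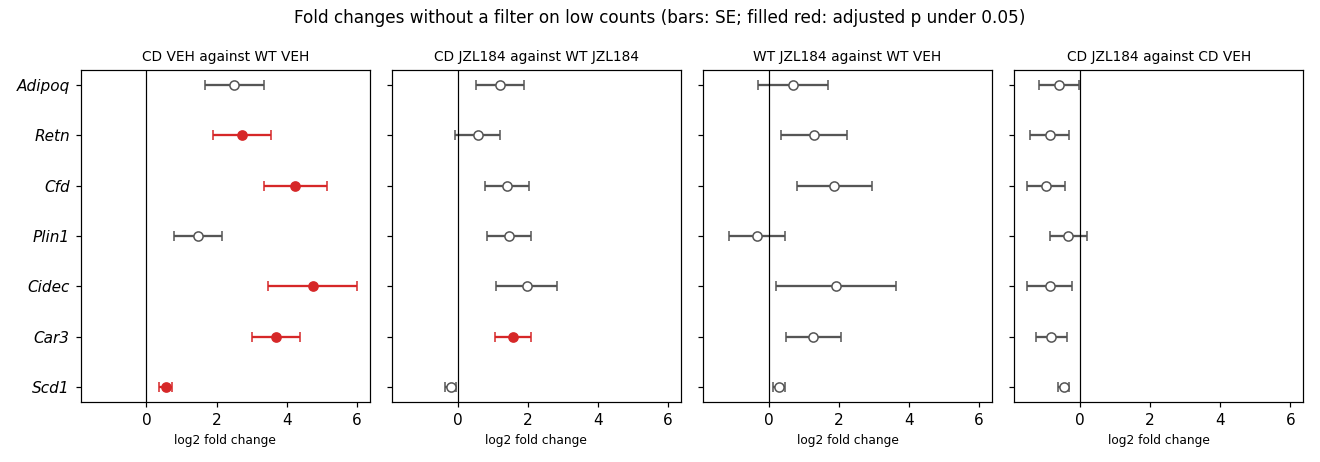
Log2 fold change (x axis) of 7 of the 8 genes (rows) in 4 comparisons, from the edgeR fit without a filter on low counts. Points are estimates, bars are SE, and filled red points have an adjusted p-value under 0.05. In CD VEH against WT VEH 5 genes are filled, in CD JZL184 against WT JZL184 only Car3, and in both comparisons of JZL184 with vehicle 0. Lep is left out because it was at 0 in every WT mouse.

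CD and WT mice were also compared with JZL184 in both genotypes. Of the 8 genes 1 rose, Car3, where 22.8% of all genes passed. Among the others, the log2 fold changes were 1.40 ± 0.63 for Cfd (SE, adjusted p by edgeR = 0.13), 1.97 ± 0.88 for Cidec (adjusted p = 0.124), 1.47 ± 0.63 for Plin1 (adjusted p = 0.111), 1.21 ± 0.68 for Adipoq (adjusted p = 0.233) and 0.58 ± 0.65 for Retn (adjusted p = 0.573). With the filter, 38.3% of genes passed, and Scd1 was at -0.22 ± 0.18 (adjusted p = 0.337). The call of Car3 was lost without any of 5 mice, WT VEH C or D, WT JZL184 A or B, or CD JZL184 E, with adjusted p = 0.0525 to 0.227, and with robust estimation (adjusted p = 0.108).

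Averaged over both treatments, the genotype difference was tested once more in the fit without a filter, where 1.21% of all genes passed. Of the 8 genes 3 rose: Car3 by 2.63 ± 0.43 (SE, adjusted p by edgeR = 0.00607), Cfd by 2.82 ± 0.55 (adjusted p = 0.021) and Cidec by 3.35 ± 0.77 (adjusted p = 0.0487). Adipoq (1.86 ± 0.54, adjusted p = 0.128), Plin1 (1.47 ± 0.47, adjusted p = 0.171) and Retn (1.65 ± 0.53, adjusted p = 0.183) missed the threshold. This comparison was added after the values were seen, and 0 of the 8 passed when WT VEH C or D was left out or with robust estimation (adjusted p = 0.0554 for Car3). Cidec was lost in 7 of the 11 cases of a mouse left out (WT VEH C or D, WT JZL184 A, CD VEH A or C, CD JZL184 C or E), with adjusted p = 0.0654 to 0.253.

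JZL184 against vehicle was compared within each genotype. In CD mice 18.2% of all genes passed without a filter and 33.8% with it, but 0 of the 8 adipocyte genes did in either fit. The estimates for the genes other than Lep were below 0, from -0.34 ± 0.53 for Plin1 (SE, adjusted p by edgeR = 0.719) to -0.97 ± 0.53 for Cfd (adjusted p = 0.24) among the 6 co-varying genes, and that of Scd1 with the filter was -0.47 ± 0.17 (adjusted p = 0.0564). At an unadjusted p under 0.05, 1 of the 8 (Scd1) passed in edgeR without a filter, beside 5908 of all 19080 genes. DESeq2 called 1 (Scd1, adjusted p = 0.0296). In WT mice 16.6% of genes passed without a filter and 29.4% with it, and again 0 of the 8. The same held at an unadjusted p under 0.05, where 5733 of all 19080 genes passed without a filter. It also held by DESeq2 for the 3 with an adjusted p (Cfd, Car3 and Scd1). Here Cfd was at 1.87 ± 1.06 (SE, adjusted p = 0.258), Car3 at 1.27 ± 0.78 (adjusted p = 0.298) and Scd1 with the filter at 0.30 ± 0.20 (adjusted p = 0.274).

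The genotype by JZL184 interaction tests whether the drug effect differed between CD and WT mice. Of the 8 genes 1 passed, Scd1, where 32.2% of genes passed without a filter and 51.5% with it. The drug effect on Scd1 was lower in CD than in WT mice by a log2 difference of -0.77 ± 0.27 with the filter (SE, adjusted p by edgeR = 0.0302) and -0.75 ± 0.24 without it (adjusted p = 0.0249). With the filter, this call was lost without any of 6 mice (WT VEH C or D, WT JZL184 B, CD VEH A, CD JZL184 A or E), with adjusted p = 0.0525 to 0.129. Cfd (-2.84 ± 1.18, adjusted p = 0.0792) and Car3 (-2.10 ± 0.89, adjusted p = 0.0867) missed the threshold, and DESeq2 called both (adjusted p = 0.0282 and 0.0349). Robust estimation without a filter ended the call of Scd1 (adjusted p = 0.0746). These comparisons share mice, so their values are not independent of each other.

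Levels of the other 7 genes were compared with those of Adipoq across the 11 mice. On log2 CPM with a prior count of 2, Pearson's r with Adipoq was 0.95 for Cidec (Spearman's rho 0.92, permutation p = 3e-05, adjusted over 7 relations 0.00021) and 0.94 for Cfd (rho 0.95, permutation p = 6e-05, adjusted 0.00021). For Car3, r was 0.93 (rho 0.92, permutation p = 0.00011, adjusted 0.000257). Retn (r = 0.82, rho 0.79, permutation p = 0.00212, adjusted 0.00371) and Plin1 (r = 0.82, rho 0.65, permutation p = 0.00271, adjusted 0.00379) followed less closely. Scd1 had r = 0.59 (permutation p = 0.0558, adjusted 0.0651) and missed the threshold by Pearson's r but not by Spearman's rho (0.69, permutation p = 0.0223, adjusted 0.0312). Lep had r = 0.20 (rho 0.42, permutation p = 0.603).

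The relations were also computed inside the groups. Without the 2 mice farthest from the Adipoq median, CD VEH A and C, r was 0.90 for Cidec, 0.88 for Cfd, 0.88 for Car3, 0.67 for Retn, 0.63 for Plin1 and 0.43 for Scd1. After subtraction of group means, r was 0.91 for Cfd, 0.91 for Car3, 0.90 for Cidec, 0.73 for Plin1, 0.66 for Retn, 0.58 for Scd1 and -0.41 for Lep. Within the 6 CD mice alone, r was 0.94 for Cfd (exact permutation p = 0.00139, adjusted 0.00486), 0.94 for Car3 (exact permutation p = 0.00139, adjusted 0.00486) and 0.91 for Cidec (exact permutation p = 0.00833, adjusted 0.0194). For Plin1 it was 0.85 (exact permutation p = 0.0264, adjusted 0.0462) and for Retn 0.59 (exact permutation p = 0.212, adjusted 0.297), so that of Retn missed the threshold within these 6 mice.

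**Figure D3:**
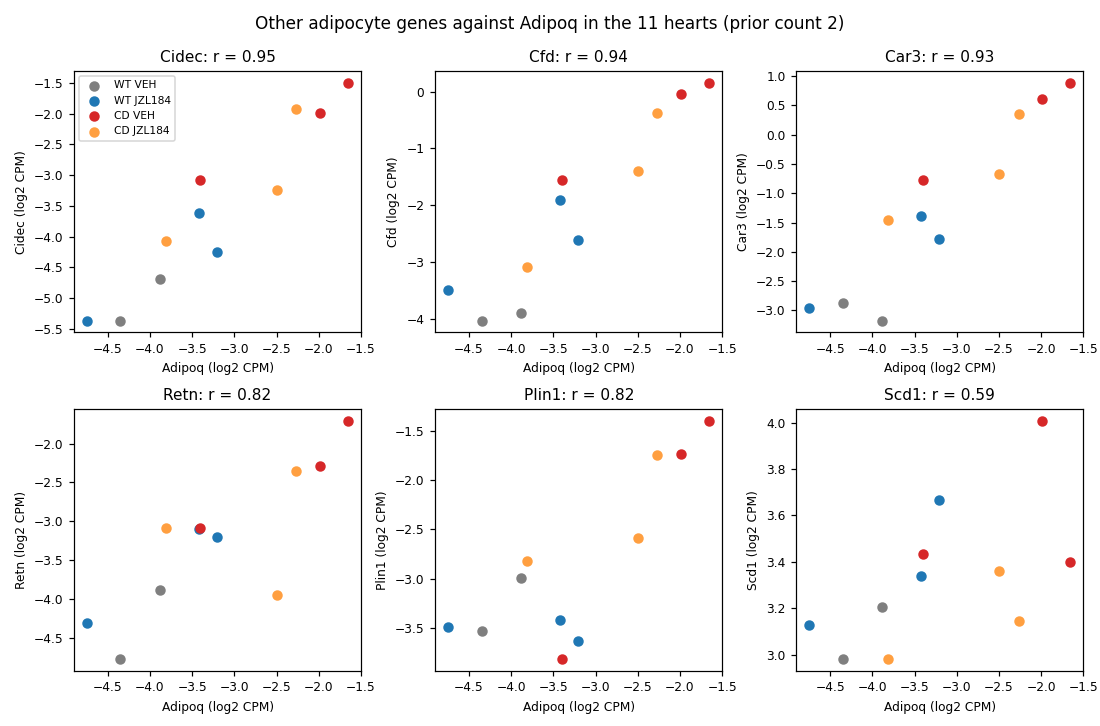
Log2 CPM (prior count 2) of Cidec, Cfd, Car3, Retn, Plin1 and Scd1 (y axes) against that of Adipoq (x axis). Each point is 1 of 11 mice, coloured by group. Cidec (r = 0.95), Cfd (0.94) and Car3 (0.93) lie close to a line, with CD VEH above all WT mice on the y axes and CD VEH E among the WT mice on the x axis, and Scd1 (0.59) is scattered.

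The shares of single genes in the summed counts of the 6 were compared between groups. Car3 gave 44.6% of them in CD VEH (exact binomial interval 40.9% to 48.3%), 44.1% in CD JZL184 (39.4% to 48.8%), 40.0% in WT JZL184 (32.0% to 48.5%) and 34.9% in WT VEH (21.01% to 50.9%), with intervals that all overlap. Cfd gave 27.0% in CD VEH (23.8% to 30.4%), 24.2% in CD JZL184 (20.3% to 28.4%), 24.8% in WT JZL184 (18.0% to 32.7%) and 14.0% in WT VEH (5.30% to 27.9%), also with overlapping intervals. Plin1 gave 7.76% in CD VEH (5.91% to 9.95%), 10.7% in CD JZL184 (8.02% to 14.0%), 10.3% in WT JZL184 (5.91% to 16.5%) and 27.9% in WT VEH (15.3% to 43.7%), where the total was 43 counts. For Plin1 the intervals of WT VEH and both CD groups do not overlap. The intervals cover counting error only.

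Markers of other cell types were read in the same hearts. Surface (mesothelial) cells of the epicardium are marked by Upk3b, Upk1b, Msln, Krt19, Krt7, Lrrn4, Bnc1 and Muc16, and the sum of these 8 ran from 0.718 to 1.47 CPM in WT VEH, 0.286 to 2.11 in WT JZL184, 0.445 to 2.69 in CD VEH and 0.350 to 2.36 in CD JZL184. Within WT VEH (C above D), WT JZL184 (D above B above A) and CD JZL184 (E above C above A) this sum ordered the mice as the 6 adipocyte genes did. Its Pearson correlation with the 6 over the 11 mice was 0.47, and that of single genes ran from -0.30 (Krt7) to 0.55 (Bnc1), or for Lrrn4 0.53 and 0.94 after subtraction of group means, all given as a description. The sum of the full mesothelial list, which also holds Wt1 (-0.38), Aldh1a2 (-0.34) and Tbx18 (0.72), had a correlation of 0.23. CD VEH differed in order: C was high in both kinds of genes, whereas A had 0.445 CPM of the mesothelial genes and 3.37 CPM of the adipocyte genes. Upk3b, Upk1b, Bnc1 and Muc16 were all at 0 in CD VEH A, WT JZL184 A and CD JZL184 A, the 3 mice whose columns carry the letter A and each the lowest of its group in the mesothelial sum, whereas Upk3b had 8 to 95 counts in each of the other 8 hearts. Of the 11 genes in the full mesothelial list 3 passed the filter. Tbx18 rose in CD VEH versus WT VEH, and in the interaction all 3 (Wt1, Tbx18 and Aldh1a2) differed downwards. JZL184 lowered Wt1 and Tbx18 in CD mice and 0 genes in WT mice, and Wt1 and Aldh1a2 were lower in CD JZL184 than in WT JZL184. Over all genes, the shares that passed were 30.4% (CD VEH versus WT VEH), 51.5% (interaction), 33.8% (drug in CD mice), 29.4% (drug in WT mice) and 38.3% (between the JZL184 groups). The part of epicardial tissue in the adipocyte signal was not tested.

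Of the atrial list, Nppa was lower where the 6 genes were higher. The 8 genes of the list summed to 191 to 212 CPM in WT VEH, 134 to 243 in WT JZL184, 72.8 to 170 in CD VEH and 95.7 to 147 in CD JZL184, and the Pearson correlation of the sum with the 6 over the 11 mice was -0.80, given as a description. Nppa, which ventricle also expresses, made up most of it (49.1 to 220 CPM) and had r = -0.81 with the mean of the 6 (-0.60 after subtraction of group means). The atrial genes Myl7 (r = 0.35, and 0.77 after subtraction), Sln (-0.06 and 0.46) and Myl4 (0.06 and 0.47) did not follow Nppa, and Sln, Myl7 and Bmp10 were near 0 CPM. Of 4 tested genes, Nr2f2 was lower in CD JZL184 than in WT JZL184 (38.3% of all genes passed) and in the interaction (51.5%), and 0 passed in the other comparisons. The part of atrial tissue or of Nppa in the result was not tested.

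Ucp1, the uncoupling protein that defines brown fat, had 16 counts in CD VEH A and at most 1 count in each other heart. The 4 brown fat genes that heart hardly expressed (Ucp1, Elovl3, Zic1 and Otop1) summed to 0.0612 to 0.276 CPM in CD VEH and 0.0702 to 0.173 CPM in the other groups. Of 13 brown fat genes 8 passed the filter, all of them expressed in every heart, such as Cox7a1 (374 to 580 CPM) and Kcnk3 (145 to 220 CPM). Which cells these 8 came from was not tested. Among them 1 rose (Cox8b) and 3 fell (Kcnk3, Pank1 and Prdm16) in CD VEH versus WT VEH, 3 rose and 2 fell with JZL184 in CD mice, and 1 rose and 1 fell with it in WT mice. Between the JZL184 groups 2 were higher and 2 lower in CD mice, and in the interaction 5 differed upwards and 2 downwards. In these comparisons, in the order given, 30.4%, 33.8%, 29.4%, 38.3% and 51.5% of all genes passed. CD VEH A also stood apart in red cell genes, with a sum of Hba-a1, Hba-a2, Hbb-bs, Hbb-bt and Alas2 of 18786 CPM, against 1416 to 5497 CPM in the other mice. Of these 5 genes, 0 passed in CD VEH versus WT VEH, 5 fell in CD JZL184 versus CD VEH (33.8% of all genes passed) and 5 differed downwards in the interaction (51.5%). The fall rested on CD VEH A: without it, 0 of the 5 passed in CD JZL184 versus CD VEH (edgeR adjusted p = 0.221 to 0.480). In that fit 4 passed in the interaction, 5 were lower in CD JZL184 than in WT JZL184 and 3 rose with JZL184 in WT mice. The share of all genes that passed in that fit is not given here, so these counts have no background beside them. Without CD VEH A, the calls of Cfd, Cidec and Car3 in CD VEH against WT VEH without a filter held, and those of Retn and Scd1 were lost. Here too, no share over all genes is given. Whether blood or brown fat had a part in that mouse's values was not tested.

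**Figure D4:**
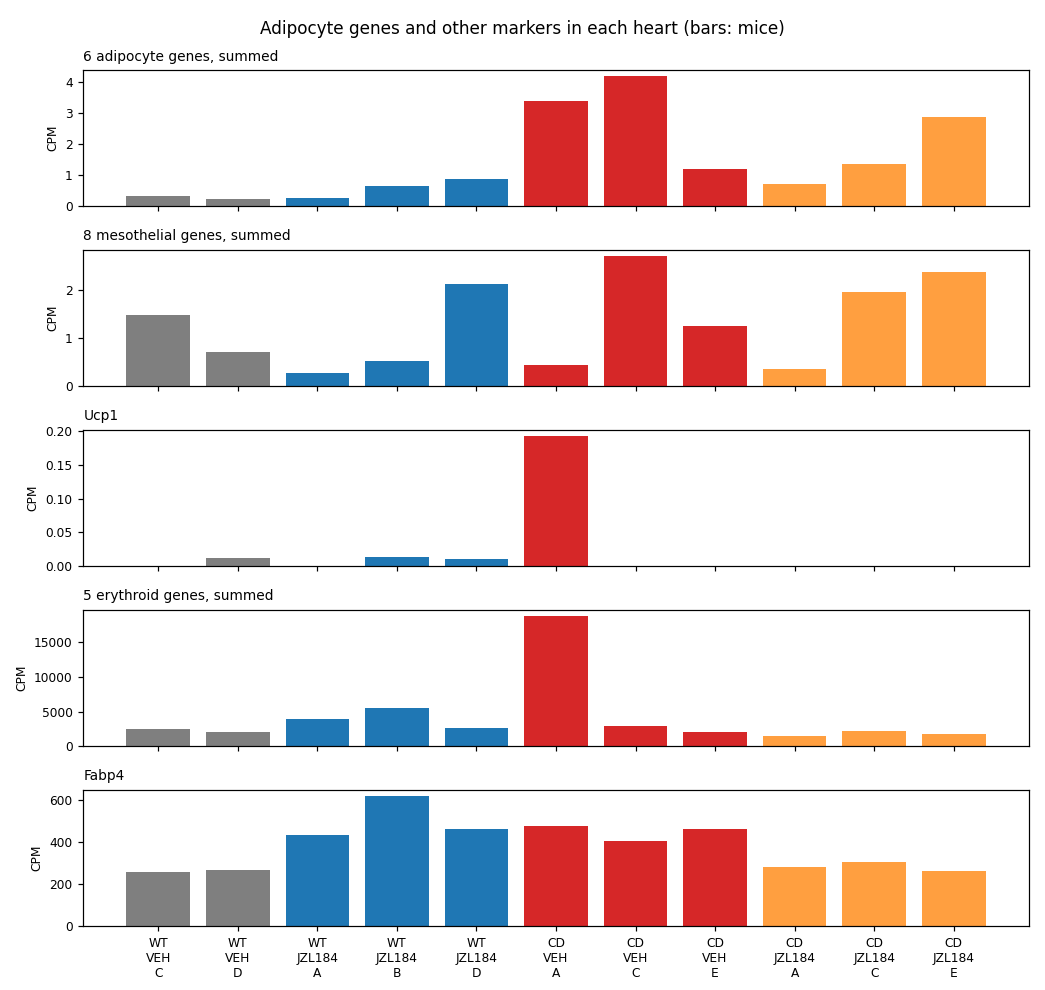
Summed level of the 6 co-varying adipocyte genes, of 8 mesothelial genes and of 5 erythroid genes, and the levels of Ucp1 and Fabp4 (y axes, CPM from 0), in each heart (x axis, coloured by group). Bars are single mice. CD VEH A is high in adipocyte genes (3.37 CPM), Ucp1 and erythroid genes (18786 CPM) and low in mesothelial genes (0.445 CPM), and Fabp4 follows another order.

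Many genes of fat cells are also used by heart muscle and its capillaries. Of 33 other adipocyte genes, 23 passed the filter, and their summed level over the list lay between 6370 and 7938 CPM in the 11 hearts. In CD VEH against WT VEH 5 rose (Aqp7, Fabp4, G0s2, Mgll and Pparg) and 6 fell (Abhd5, Acsl1, Dgat2, Gpd1, Lpin1 and Lpl), with a median of 0.12 over the 23 beside 0.01 over all tested genes, of which 30.4% passed. Fabp4, a fatty acid carrier of fat cells and of heart endothelium, was at 260 and 267 CPM in WT VEH, 431, 617 and 459 in WT JZL184, 476, 403 and 463 in CD VEH and 281, 304 and 262 in CD JZL184. These groups ordered themselves unlike the 6 genes, since WT JZL184 was as high as CD VEH. Fabp4 rose in CD VEH versus WT VEH by a log2 fold change of 0.76 ± 0.14 (SE, adjusted p by edgeR = 0.0045) and fell in CD JZL184 against CD VEH by 0.66 (adjusted p = 0.0036).

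Pparg, the master regulator of fat cell differentiation, rose in the same comparisons as Fabp4 did, with 0.52 ± 0.11 in CD VEH versus WT VEH (SE, adjusted p by edgeR = 0.00836) and 0.76 ± 0.11 in WT JZL184 against WT VEH (adjusted p = 0.00232). Lpl, the lipase that releases fatty acids from circulating triglyceride, had the highest level of the list at 2732 to 4242 CPM and fell in CD VEH versus WT VEH by 0.48 (adjusted p = 0.00652). Mgll, which encodes the target of JZL184, rose by 0.44 ± 0.14 in that comparison (adjusted p = 0.0329). Antisense and other transcripts overlap it, so its counts may hold reads of those. JZL184 in WT mice raised 6 and lowered 5 of the 23 (29.4% of all genes passed), and in CD mice raised 4 and lowered 6 (33.8%). Between the JZL184 groups 4 were higher and 7 lower in CD mice (38.3%). In the interaction, 6 differed upwards and 11 downwards (51.5%).

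Hp and Pck1 are low in heart and were the members of that list closest to the 6 genes across mice. Their Pearson correlations over 11 mice with the mean log2 CPM of the 6 were 0.83 and 0.78, given as a description. Other genes of the list below the filter followed less closely or not at all: Acvr1c (0.52), Slc7a10 (0.51), Adig (0.40), Apoc1 (0.23), Nrg4 (0.03), Nnat (0.02), Adrb3 (-0.04) and Tmem45b (-0.39). Hp, the gene of haptoglobin, was at 0.275 and 0.111 CPM in WT VEH, 0.169, 0.421 and 0.622 CPM in WT JZL184 and 1.11, 1.03 and 0.574 CPM in CD VEH. WT JZL184 D was above CD VEH E, so Hp did not set CD VEH apart from all WT mice. It rose without a filter in CD VEH versus WT VEH by 2.25 ± 0.57 (SE, adjusted p by edgeR = 0.0146). In CD JZL184 it was at 0.152, 0.498 and 0.424 CPM and fell versus CD VEH by 1.31 (adjusted p = 0.0497). Pck1, which supplies glycerol for triglyceride in fat cells, was at 0.0722 and 0.0991 CPM in WT VEH, 0.104, 0.140 and 0.150 in WT JZL184, 0.385, 0.306 and 0.0469 in CD VEH and 0.0701, 0.173 and 0.367 in CD JZL184. The groups overlapped, and CD VEH against WT VEH gave 1.49 ± 0.77 (adjusted p = 0.204). As for Adipoq, CD VEH E was the lowest of its group.

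Scd1 was set beside 19 genes of fatty acid synthesis, of which 17 passed the filter. In CD VEH against WT VEH 3 rose (Elovl5, Fads2 and Slc25a1) and 4 fell (Acaca, Acacb, Me1 and Mlxipl), with a median of 0.03, where 30.4% of all genes passed. Mlxipl, the glucose-responsive factor ChREBP, lies in the deleted interval and fell by 1.37 (edgeR adjusted p = 1.22e-05). JZL184 in CD mice raised 5 and lowered 1 (33.8% of all genes passed), in WT mice it raised 5 and lowered 2 (29.4%), and 4 were higher and 4 lower in CD JZL184 than in WT JZL184 (38.3%). In the interaction 7 differed upwards and 5 downwards (51.5%). Elovl5, which lengthens polyunsaturated fatty acids, differed in the same direction as Scd1 (-0.76 ± 0.10, SE, adjusted p = 0.000252). Fasn (0.70 ± 0.18, adjusted p = 0.00685) and Acacb (0.99 ± 0.12, adjusted p = 0.000174) differed in the opposite direction. The neighbours Scd2 (0.28 ± 0.17, adjusted p = 0.191) and Scd4 (-0.58 ± 0.36, adjusted p = 0.195) did not pass.

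The genes whose levels followed Scd1 most closely over the 11 mice, of 11318 candidates, were Itgb3 (r = 0.96), Btg2 (0.92), Cdc25b (0.91), Isg20 (0.91), Fam117a (0.91), Oaf (0.90), Rftn1 (0.90), Ube2l6 (0.90), Tipin (0.90) and H3f3b (0.90). For the mean of the 6 low genes, of 15532 candidates, they were Sprn (0.91), Smyd3 (0.91), H2afy2 (0.90), Zkscan4 (0.89), Mid1 (0.89), Col4a6 (0.89), 2310030G06Rik (0.88), Bcam (0.87), Bscl2 (0.87, the seipin gene of lipid droplet formation) and Hddc2 (0.87). Both are rankings of correlation with no test.

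Of 10 genes for receptors and partners of these adipokines, all passed the filter. In CD VEH against WT VEH 2 rose (Cap1 and Cfp) and 1 fell (Adipor2), a share near the 30.4% of all genes. JZL184 raised 4 and lowered 0 in WT mice (29.4% of all genes passed) and raised 1 and lowered 3 in CD mice (33.8%), and between the JZL184 groups 0 were higher and 3 lower in CD mice (38.3%). In the interaction, 2 differed upwards and 6 downwards (51.5%). The adiponectin receptors Adipor1 and Adipor2 were at 138 to 177 and 61.9 to 90.0 CPM, and T-cadherin (Cdh13), which binds adiponectin, was at 108 to 136 CPM. C3, the precursor in the complement loop that factor D drives, was at 56.1 to 87.5 CPM and passed in 0 of the 5 comparisons. Lepr, the leptin receptor, was at 1.64 to 4.63 CPM and rose in WT JZL184 against WT VEH (0.88 ± 0.28, SE, edgeR, adjusted p = 0.0338). Cfp, properdin of the same complement pathway, rose by 0.52 ± 0.14 in CD VEH versus WT VEH (edgeR adjusted p = 0.0175).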

How the data were processed

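The authors extracted total RNA from hearts and sequenced it on an Illumina instrument. Per the labels, Salmon 0.7.2 was used on mm10, and the study's methods name Ensembl release 85 and tximport 1.2.0. The deposited table holds one column of unnormalized estimated counts for each mouse, and 0 of its columns lacked a group. Column letters are in no sample label, so columns were mapped to groups only. Nothing in the sources says whether libraries shared a batch.

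Estimated counts were rounded and tested with edgeR 4.0.16 (R 4.3.3, limma 3.58.1; TMM, quasi-likelihood test, all 11 mice in 1 model, Benjamini-Hochberg adjustment, adjusted p under 0.05). The filter was a mean log2 CPM of 1 or more (11319 genes, common biological coefficient of variation 9.13%). Since 7 of the 8 genes lay below this filter, 19080 genes with at least 1 count were also fitted without it. Symbols matched 22238 of 22608 identifiers. Correlations had 100000 permutations (scipy 1.17.1) or all of them, two-sided. Intervals (95%) and floors of 3 counts cover counting error only. The steps were tested on simulated data.

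The members and lists were chosen with earlier results of these data known. Named are the 8 genes, the 10 genes most like those that passed the filter, and from each other list genes called in at least 1 comparison and the 3 most abundant. Pck1, Ucp1, Hp, the red cell genes, the low mesothelial and brown fat genes and the genes most like the 6 low genes were named after their values were seen. Alternatives were DESeq2 1.42.0, RLE and upper quartile scaling, no mitochondrial genes, robust estimation, only the groups compared, at least 10 counts in every mouse, prior counts of 0.5 and 5, each mouse left out in turn and the column letter as a block. The lists for cardiomyocyte, smooth muscle, lymphoid and fast skeletal muscle genes are given in the closing section, and 1 further gene planned for the red cell list is not reported here.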

Additional observations from a re-analysis of the deposited data

Results flagged for a closer look

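The effect of JZL184 on Scd1 differed between CD and WT mice by the test of the interaction itself (edgeR quasi-likelihood). The log2 difference was -0.77 with the filter on low counts (adjusted p = 0.0302) and -0.75 without it (adjusted p = 0.0249). In CD mice the drug effect was -0.47 ± 0.17 and in WT mice 0.30 ± 0.20 (SE, with the filter), and neither passed alone. With the filter, the call of the interaction was lost without any of 6 mice left out in turn (adjusted p = 0.0525 to 0.129).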

How the results depend on the processing

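Without a filter, DESeq2 called 3 of the 8 genes in CD VEH versus WT VEH, 1 in CD JZL184 versus CD VEH and 3 in the interaction, out of 3, 3 and 4 with an adjusted p (Cfd, Car3 and Scd1, with Plin1 in the interaction). The shares of all genes that DESeq2 called are not given here, so its counts have no background beside them. Robust estimation called 0 in CD JZL184 versus WT JZL184, 0 in the interaction and 0 over both treatments, and the cause was not tested. A fit of only the groups compared called 1 in CD JZL184 versus CD VEH without a filter, and 1612 genes with it in WT JZL184 versus WT VEH, where all groups together gave 3332. With the filter, DESeq2 called Scd1 (1 of 1) in CD VEH versus WT VEH and (1 of 1) in CD JZL184 versus CD VEH. Dropping the filter brought 7 more genes into the test and gave 5 (CD over WT, vehicle) and 1 (CD over WT, JZL184).

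Each mouse left out in turn gave 0 to 7 called members in CD VEH versus WT VEH without a filter, 0 to 1 in CD JZL184 versus CD VEH, 0 to 2 in CD JZL184 versus WT JZL184, 0 to 4 over both treatments and 0 to 3 in the interaction. With the filter the ranges were 0 to 1 for CD VEH versus WT VEH and likewise for the drug in CD mice and the interaction. Genes called over the whole table ran from 244 (without WT VEH C) to 4348 in CD VEH versus WT VEH, 1862 to 4691 in CD JZL184 versus CD VEH and 467 (without WT VEH C) to 4806 in WT JZL184 versus WT VEH. With WT VEH cut to 1 mouse, that mouse is assumed to vary like the other groups.

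Directions turned, beside those under the letter block, for values that passed no test: Plin1 in the interaction (0.00) was -0.0145 with upper quartile scaling, -0.0034 without mitochondrial genes and -0.48 to 0.48 with a mouse left out (-0.36, -0.0769, -0.48 and -0.46 below 0, without WT VEH C, WT JZL184 B, CD VEH E and CD JZL184 E). Plin1 reached 0.146 in CD JZL184 versus CD VEH without CD VEH C (lowest -0.82) and 0.0230 without WT VEH C in WT JZL184 versus WT VEH (lowest -0.65). Retn reached -0.0333 in CD JZL184 versus WT JZL184 without CD JZL184 E (highest 0.96). The correlation of Lep with Adipoq was -0.25 within the 6 CD mice, that of Retn 0.59, and that of Scd1 0.46 to 0.70 with a mouse left out, past the threshold in 3 cases. The summed CPM of all 8 genes was 8.83 and 11.1 in WT mice (vehicle, then JZL184) and 15.4 and 10.6 in CD mice. In the same order, it was 15.3, 19.2, 26.6 and 18.5 relative to non-mitochondrial counts only, 0.290, 0.606, 2.93 and 1.66 without Scd1, and 0.191, 0.364, 1.63 and 0.928 without Scd1 and Car3.

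The fit without a filter as a result of its own, the genotype difference over both treatments, the sums without Scd1, the mean of the 6 low genes as reference and the correlations within CD mice were chosen after seeing the data. Adipoq, Retn, Plin1, Cidec and Lep had at most 29 counts in any mouse, which limits their precision.

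The column letters A to E recur across groups, and the labels give them no meaning. Deviations from group means correlated at -0.25 to 0.31 in the 8 pairs of mice with the same letter, over 0.1 in 1 of them, and at -0.34 to 0.31 in the 37 pairs with different letters of different groups, so pairing by letter was not shown over all genes. The 3 mice lettered A (0.31, 0.0357 and -0.0014 among them) shared the zeros of 4 mesothelial genes, whose relation to the letter was not tested. A fit with the letter as a replicate block, added after seeing the data and left with 3 residual degrees of freedom, called 2 of the 8 genes without a filter in CD VEH versus WT VEH (Cfd and Car3), and 0 between the JZL184 groups, over both treatments and in the interaction (0 with the filter too). Over all 19080 genes without a filter, it called 2247, 1067, 145 and 4483 in these comparisons, in the order given. With the filter, it called 669 genes in WT JZL184 versus WT VEH and 1112 between the JZL184 groups. Scd1 between the JZL184 groups was 0.0071 with the filter and 0.0130 without it, and Plin1 in the interaction was -0.19.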

Other observations

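Marker lists of other tissues were read as values. Smooth muscle genes (6 genes, Myh11, Acta2 and Tagln among them) summed to 99.7 to 108 CPM in WT VEH, 148 to 194 in WT JZL184, 116 to 123 in CD VEH and 75.9 to 92.6 in CD JZL184, an order of the groups unlike that of the low adipocyte genes. Of 4 tested with the filter, 3 rose in CD VEH versus WT VEH (30.4% of all genes passed) and 3 with JZL184 in WT mice (29.4%). In CD mice JZL184 lowered 3 (33.8%), and 4 were lower in CD JZL184 than in WT JZL184 (38.3%). In the interaction 4 differed downwards (51.5%). Lymphoid and thymic genes (10 genes) summed to 1.54 to 4.28 CPM over all mice, with the thymic gene Dntt at 0 in 10 of the 11 hearts. Fast skeletal muscle genes (8 genes) summed to 1.79 to 2.96 CPM.

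Cardiomyocyte genes (10 genes) summed to 37219 to 51425 CPM, with the lowest value in WT JZL184 B, a mouse with 0.660 CPM of the 6 low adipocyte genes. Of the 10, 4 fell in CD VEH versus WT VEH (Actc1, Actn2, Myh6 and Ttn) and 4 fell with JZL184 in WT mice, whereas 3 rose and 1 fell with JZL184 in CD mice (edgeR, adjusted p under 0.05, with the filter), where 30.4%, 29.4% and 33.8% of all genes passed. Between the JZL184 groups 3 were higher and 1 lower in CD mice (38.3% of all genes), and in the interaction 5 differed upwards and 1 downwards (51.5%).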
